A study of Danio rerio with 14 samples.

Results

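Which transcripts of the zebrafish pineal gland differ between dawn and dusk, whether or not the fish see a light cycle, was asked by setting 6 dawn arrays against 4 dusk arrays, 10 of the 14 arrays of the series. The dawn arrays were collected at zeitgeber time (ZT, hours from lights on) 22 and 2, with a further collection called ZT2b that the labels do not explain and that was used here as ZT2. The dusk arrays were collected at ZT10 and ZT14. Each collection was made in fish on a light-dark schedule with 12 h lit per day (LD) and in fish left in the dark throughout the day of collection (DD), which gave 3 dawn and 2 dusk arrays in LD and the same in DD. The arrays of ZT6 and ZT18 lie between the groups and were left out of the main tests. All fish were adult Tg(aanat2:EGFP)Y8 zebrafish of 3 to 6 months, males and females, in which the promoter of aanat2, an enzyme gene of melatonin synthesis, drives a green fluorescent protein that marks the gland for dissection, and all had been raised in the light cycle. Each array held the RNA of 12 pooled glands, so individual fish were not measured. Under LD, the lights were off at ZT22 and ZT14 and on at ZT2, ZT2b and ZT10, so that each phase held lit and dark pools. The arrays of a phase were taken at different times and served as its replicates, so p-values measure the spread of single pools around the phase and light terms.

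The pineal gland of fish is a photoreceptor organ with a clock of its own and makes melatonin at night. In the vertebrate clock, Clock and Bmal proteins activate genes through E-box elements, and their targets include Per, Cry, Bhlhe40 and Bhlhe41 and Ciart proteins, which repress them in turn. Rev-erb receptors (the nr1d genes) repress and Ror receptors activate the bmal genes, and PAR bZIP activators such as Tef compete with E4BP4 repressors (the nfil3 genes) at D-box elements.

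Values are MAS5 signals on a linear scale, and differences are on a log2 scale of the signal plus 14.9. The median signal of an array was between 42.2 and 50.8 over the 14 arrays. The DD array of ZT10 stood apart. Its mean correlation across probe sets with the other arrays of its phase was 0.9035, against 0.9291 to 0.9512 on the other 9 arrays of the comparison. Its GAPDH 3'/5' signal ratio was 16.7, against 5.09 to 12.89 on the other 13 arrays. The geometric mean of its poly-A spike-in control signals was 1531.1, against 80.6 to 224.4 on the other 13. Its estimated array weight was 0.249, against 0.669 to 1.98 on the other 9 arrays of the comparison. Of the 9 pineal photoreceptor markers tested, none was called between dawn and dusk, and exorh, the pineal rod-like opsin, averaged 10743 ± 1738 at dawn (SD, n = 6) and 13091 ± 1145 at dusk (SD, n = 4). No tested marker of blood, leukocytes, vessels, neurons, glia, myelin, habenula, muscle, connective tissue or skin was called. These lists held from 1 (myelin) to 7 (leukocytes) tested genes. Of all genes tested, 1.16% were called higher at dawn and 0.932% higher at dusk, so few calls are expected in lists this short. Pools of a phase still differed in some of these lists. Summed skin marker signals ran from 1327 to 4019 over the dawn arrays and from 1100 to 2641 over the dusk arrays. Those of glia ran from 7566 to 9156 and from 6329 to 8126. The blood globin hbaa1 was bright, with 9736 ± 2859 at dawn (SD, n = 6) and 11085 ± 3375 at dusk (SD, n = 4).

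The 3 largest called differences were in clock genes: nfil3-5 was higher at dusk, and bhlhe41 and ciarta were higher at dawn. A probe set was called when its limma p, adjusted by Benjamini-Hochberg over 9299 probe sets, was under 0.05. By this rule 206 probe sets (2.22%) differed, of which 96 (1.03%) were higher at dawn and 110 (1.18%) higher at dusk. The probe sets higher at dawn stood for 75 named genes and those higher at dusk for 57, and 67 called probe sets had no gene symbol. At an unadjusted p under 0.05 there were 1335 probe sets, against 464.95 by chance. Of the called differences, 104 exceeded 1 in size on the log2 scale and 18 exceeded 2. The count fell to 93 when the ZT14 array of LD was left out, to 111 for that of ZT10 in LD, to 121 for that of ZT2b in DD, and to 51 when both ZT2b arrays were left out. Leaving out the DD array of ZT10 gave 249, with 138 higher at dawn and 111 higher at dusk. With p-values still adjusted over all probe sets and each of 6116 genes given by its brightest probe set, 71 genes (1.16%) were higher at dawn and 57 (0.932%) higher at dusk. In pools of whole glands, fewer cells of a type and less RNA per cell cannot be told apart.

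The values of the called probe sets were usually separated array by array. Of all tested probe sets, 610 (6.56%) had dawn and dusk arrays that did not overlap within LD nor within DD, in the same direction, and 287 (3.09%) had all 6 dawn arrays on one side of all 4 dusk arrays. Among the probe sets called higher at dawn, 87 of 96 did not overlap within either condition and 55 not over all 10 arrays. Among those called higher at dusk, 106 of 110 did not overlap within either condition and 88 not over all arrays. Among the overlapping ones, named here after their values were seen, were zgc:162144, higher at dawn by 2.88 (adjusted p = 0.00938), and ndrg1b, higher at dusk at -2.62 (adjusted p = 0.0197).

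The largest differences at dawn were those of clock repressors. The gene bhlhe41, an E-box repressor of the Dec family, had signals of 5219 at ZT22, 1136 at ZT2 and 1472 at ZT2b in LD, and 988, 1019.7 and 2104 at the same collections in DD. Its dusk signals were 50.8 at ZT10 and 50 at ZT14 in LD, and 126 and 42.8 in DD. Every dawn array was far above the highest dusk array, and the difference was 4.42 ± 0.42 SE, adjusted p = 0.000168. The gene ciarta, a homologue of the mammalian Bmal repressor Ciart, or Chrono, had signals of 994 at ZT22, 568 at ZT2 and 675 at ZT2b in LD, and 325, 516 and 695 at the same collections in DD. At dusk its signals were 26.9 at ZT10 and 3.1 at ZT14 in LD, and 56.1 and 32.5 in DD, so the groups were far apart in each condition. The difference was 3.94 ± 0.35 SE, adjusted p = 0.000105.

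The Rev-erb gene nr1d2b had signals of 1031 at ZT22, 1711 at ZT2 and 1661 at ZT2b in LD, and 719, 1270.3 and 1128 at the same collections in DD, against dusk signals of 197 at ZT10 and 59.6 at ZT14 in LD, and 420.1 and 142 in DD. All dawn arrays lay above all dusk arrays, at 2.75 ± 0.39 SE, adjusted p = 0.00338. A second probe set of nr1d2b differed by 0.72 and was not called. The PAR bZIP activator tefa had dawn signals of 1436 at ZT22, 1634 at ZT2 and 1749 at ZT2b in LD, and 430.1, 762 and 882 at the same collections in DD, against 299 at ZT10 and 406 at ZT14 in LD, and 308 and 266 in DD at dusk. The dawn signals were above all dusk signals, and those of LD stood higher than those of DD. Its difference was 1.66 ± 0.24 SE, adjusted p = 0.00338, and its second probe set was also called, at 1.21.

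At dusk the largest difference was that of nfil3-5, which encodes an E4BP4-type bZIP repressor. Its dawn signals were 24.6 at ZT22, 47.6 at ZT2 and 33.4 at ZT2b in LD, and 100.0, 61.5 and 28.7 at the same collections in DD. Its dusk signals were 6239 at ZT10 and 1035 at ZT14 in LD, and 2513 and 2188 in DD, and the lowest of these was far above the highest dawn signal. The difference was -5.36 ± 0.41 SE, adjusted p = 6.55e-05, the largest in size and the smallest p of all probe sets tested. The other PAR bZIP and E4BP4 gene tested, nfil3-6, was not called (0.75, adjusted p = 0.535), with dawn signals of 861 to 3794 (median 2095) against 336 to 2259 at dusk.

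Both bmal1 genes, which encode clock activators, were higher at dusk. Dawn signals of bmal1a were 4.3 at ZT22, 55.9 at ZT2 and 83.2 at ZT2b in LD, and 48.9, 54.1 and 31.0 at the same collections in DD, and dusk signals were 332 at ZT10 and 206 at ZT14 in LD, and 150.3 and 179 in DD. The groups did not overlap, and the difference was -2.02 ± 0.37 SE, adjusted p = 0.0118. Dawn signals of bmal1b were 19.5 at ZT22, 28.4 at ZT2 and 26.6 at ZT2b in LD, and 51.8, 24.3 and 30.7 at the same collections in DD, and dusk signals were 324 at ZT10 and 132 at ZT14 in LD, and 96.2 and 96.2 in DD. They were apart in the same way, at -1.83 ± 0.29 SE, adjusted p = 0.00583. Without the LD array of ZT10 the adjusted p of bmal1a was 0.0607. Among the other activators tested, the Ror receptor gene rorcb had dawn signals of 2.2 to 46.8 (median 26.6) and dusk signals of 409.8 and 23.8 in LD and 474 and 172 in DD. The LD array of ZT14 lay among the dawn arrays and the gene missed the threshold (-2.33 ± 0.57 SE, adjusted p = 0.0542). Neither rorab (-0.12 ± 0.50, adjusted p = 0.943) nor clocka (-0.23 ± 0.30, adjusted p = 0.766) was called.

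The cryptochrome genes did not share a direction. The gene cry4, a cryptochrome of zebrafish and birds that does not repress Clock and Bmal in zebrafish, was dim at dawn, with signals of 14.9 at ZT22, 24.7 at ZT2 and 25.9 at ZT2b in LD, and 7.4, 12.0 and 14.9 at the same collections in DD, and brighter at dusk, with 132 at ZT10 and 98.4 at ZT14 in LD, and 131 and 109 in DD. Its difference was -2.09 ± 0.18 SE, adjusted p = 0.000105, and this size is understated because the dawn signals are close to or below the 14.9 added before the log. The repressor cry2 was called higher at dawn (1.57 ± 0.36 SE, adjusted p = 0.0419) and a second probe set also was, at 1.65. Its 3 LD dawn arrays, from 605 to 1002, stood above all other arrays, and its DD dawn arrays, from 112 to 204, overlapped the DD dusk arrays of 151 and 67.9. The call of this probe set was lost under 14 of 25 alternative settings. No difference was called for cry1a (0.43 ± 0.41, adjusted p = 0.668), cry1b (0.48 ± 0.36, adjusted p = 0.572) or the period gene per2 (0.06 ± 0.86, adjusted p = 0.984). Over the 9 tested genes of the negative limb list, 4 were called higher at dawn and 1 higher at dusk. Their median difference was 1.57 over both conditions, but 2.51 in LD and 0.62 in DD. The dusk call was cry4, which was in this list though it is not a repressor in zebrafish. The other 8 had differences above 0 over both conditions together. Over the 5 of the positive limb, 2 were called higher at dusk and none at dawn. Their median was -1.83 (-1.78 in LD and -1.175 in DD), against 0.01 over all 6116 genes. Of all 6116 genes, 1.16% were called higher at dawn and 0.932% higher at dusk.

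**Figure D1:**
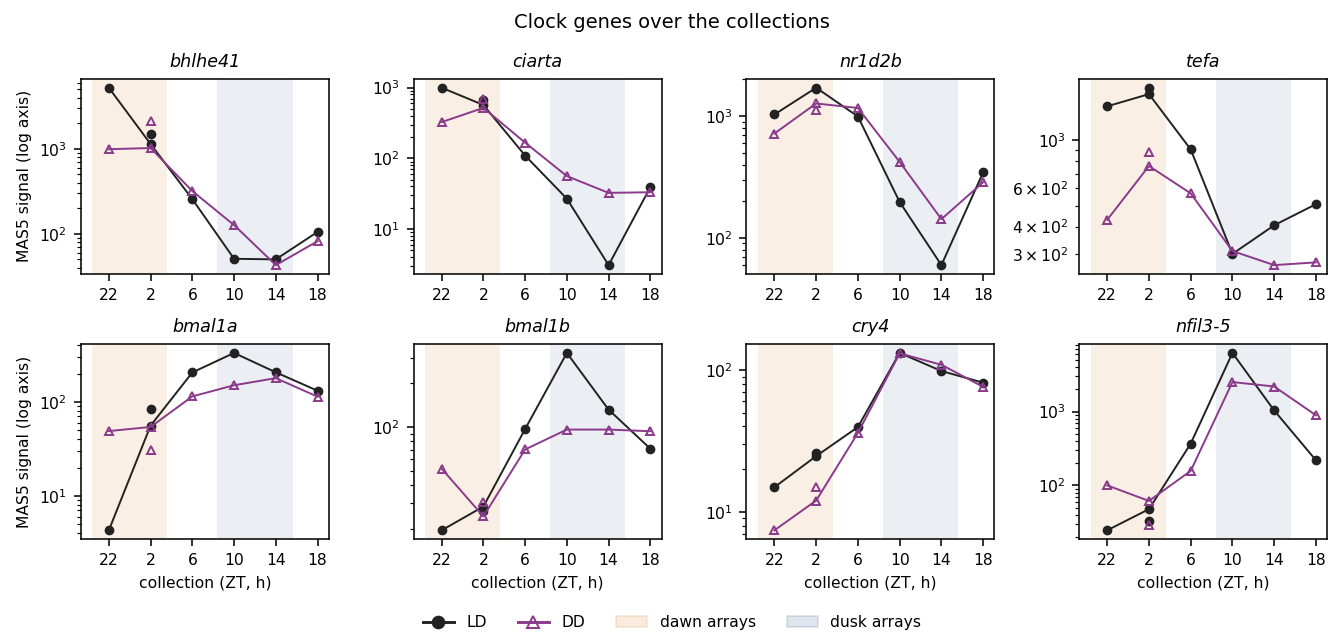
MAS5 signal (log axes, with a different range in each panel) of 8 clock genes by collection time, from ZT22 (left) to ZT18, in LD (filled circles) and DD (open triangles), with a single pool per point and both ZT2 and ZT2b drawn at 2. The dawn and dusk collections are shaded: bhlhe41, ciarta, nr1d2b and tefa were higher at dawn, and bmal1a, bmal1b, cry4 and nfil3-5 were higher at dusk, with nfil3-5 between 24.6 and 100.0 at dawn and between 1035 and 6239 at dusk.

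Genes of clock protein kinases and of turnover went either way. Of 13 tested, csnk1db and csnk1da, which encode forms of casein kinase 1 delta, were higher at dawn, and csnk1e, for casein kinase 1 epsilon, and fbxl3a, whose mammalian homologue marks Cry proteins for degradation, were higher at dusk. The signals of csnk1db were 1308 to 2007 (median 1537) at dawn against 848 to 1019 at dusk (0.82 ± 0.14 SE, adjusted p = 0.00938). The signals of csnk1da were 1186 to 1652 (median 1438) at dawn against 590.3 to 1175 at dusk (0.87 ± 0.19 SE, adjusted p = 0.0306). For csnk1e the dawn signals were 65.9 to 117 (median 81.5) and the dusk signals 109 to 208, with overlap over the 10 arrays but none within a condition (-0.83 ± 0.14 SE, adjusted p = 0.00938). For fbxl3a the dawn signals were 372 to 798 (median 604) and the dusk signals 789.5 to 1887, again with no overlap within LD or within DD (-0.95 ± 0.15 SE, adjusted p = 0.00576). Over all genes tested, 1.16% were called higher at dawn and 0.932% higher at dusk. The median over the 13 genes was -0.03. The call of csnk1da was lost under 10 of 25 alternative settings.

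Among the 15 genes with the largest dawn differences were arg2, slc38a4 and mat1a, which encode enzymes or a transporter. The arginase gene arg2 had signals of 608 at ZT22, 1030.3 at ZT2 and 1011 at ZT2b in LD, and 301, 608 and 732 at the same collections in DD. Its dusk signals were 185 at ZT10 and 118 at ZT14 in LD, and 95.5 and 104 in DD, all below the dawn signals, and it differed by 2.31 ± 0.25 SE, adjusted p = 0.000419. The gene slc38a4, for a transporter of neutral amino acids, had dawn signals of 207 to 614 (median 273) against 32.1 and 50.7 in LD and 103 and 90.1 in DD at dusk (2.06 ± 0.31 SE, adjusted p = 0.00452). The gene mat1a, for a methionine adenosyltransferase that makes S-adenosylmethionine, had dawn signals of 68.0 to 426 (median 134) against 21.6 to 52.1 at dusk (1.66 ± 0.38 SE, adjusted p = 0.0362), and its call was lost under 13 of 25 alternative settings. Among 84 tested solute carriers, slc38a4, slc25a33, a mitochondrial pyrimidine nucleotide carrier (1.45 ± 0.23, adjusted p = 0.00606), and slc13a5a, of a family of citrate transporters (0.88 ± 0.18, adjusted p = 0.022), were called higher at dawn and none was called higher at dusk. Over all genes tested, 1.16% were called higher at dawn and 0.932% higher at dusk. The median of the 84 was -0.005. The call of slc13a5a was lost under 9 of 25 alternative settings.

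Other members of the 15 largest dawn differences had varied roles. The gene mid1ip1l had dawn signals of 1452 to 6944 (median 2910.5) against 1708 and 966 in LD and 869 and 740.0 in DD at dusk (1.57 ± 0.24 SE, adjusted p = 0.0053), and the highest LD dusk signal overlapped the DD dawn signals. The gene bzw2 had dawn signals of 196 to 809.6 (median 431) against 76.3 to 169 at dusk (1.68 ± 0.20 SE, adjusted p = 0.00112). The gene dedd1, for a protein with a death effector domain, had dawn signals of 116 to 317 (median 231) against 21.4 to 136 at dusk (1.58 ± 0.20 SE, adjusted p = 0.00164), and its groups were apart within each condition only.

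Of 51 heat shock and cold-inducible genes tested, 4 were called higher at dawn and 1 higher at dusk, where 1.16% of all genes tested were called higher at dawn and 0.932% higher at dusk, and the median was 0.16 against 0.01 over all genes. The transcription factor gene hsf2 had dawn signals of 461 to 715 (median 465) against 117 to 285 at dusk (1.53 ± 0.23 SE, adjusted p = 0.00425). The gene fkbp5, for a co-chaperone of the glucocorticoid receptor that glucocorticoids induce, had dawn signals of 367 to 862 (median 704) against 153 and 156 in LD and 185 and 312 in DD at dusk (1.66 ± 0.26 SE, adjusted p = 0.00576). The collagen chaperone gene serpinh1b differed by 1.52 ± 0.24 SE, adjusted p = 0.00583, with LD dawn signals of 171 to 392 against 87.6 and 94.0 at LD dusk, and DD dawn signals of 1077 to 2192 against 511 and 409 at DD dusk. The small heat shock protein gene hspb6 was also called higher at dawn (0.84 ± 0.18, adjusted p = 0.0279), and dnaja2b, for a DNAJ co-chaperone, was called higher at dusk (-0.81 ± 0.17, adjusted p = 0.0259). A second tested probe set of dnaja2b was not called. Of 27 immediate early genes, klf9, a Krüppel-like factor that glucocorticoids induce, was the single call, with dawn signals of 277 to 1330.2 (median 539) against 106 and 169.8 in LD and 209.9 and 328 in DD at dusk (1.48 ± 0.35 SE, adjusted p = 0.0489). The calls of klf9, dnaja2b and hspb6 were lost under 17, 11 and 9 of 25 alternative settings.

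**Figure D2:**
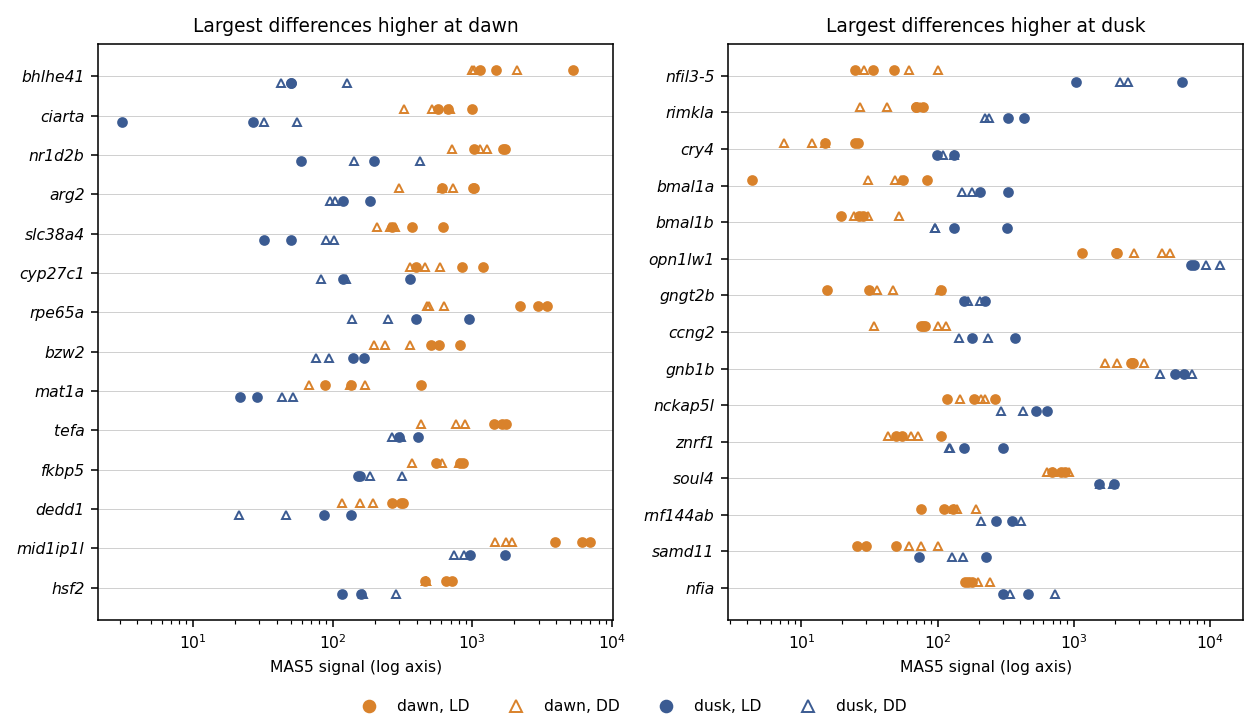
MAS5 signal (log axes) on each of the 10 arrays for 14 of the 15 genes with the largest called differences higher at dawn and for the 15 higher at dusk, dawn arrays orange and drawn above, dusk arrays blue and drawn below, LD filled circles and DD open triangles. Dawn and dusk arrays of each gene do not overlap within LD nor within DD, which was a condition for showing them, while cyp27c1, dedd1, mid1ip1l, the probe set of rpe65a shown and samd11 overlap when the conditions are put together.

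Of 25 phototransduction genes tested, 3 were called, all higher at dusk, where 0.932% of all genes tested were called higher at dusk. The red cone opsin gene opn1lw1 had dawn signals of 2085 at ZT22, 1149 at ZT2 and 2048 at ZT2b in LD, and 5110.0, 4482 and 2789.6 at the same collections in DD, against 7598 at ZT10 and 7230.2 at ZT14 in LD, and 11839 and 9343 in DD at dusk. The DD signals were above the LD signals of the same phase, and the dawn signals were below all dusk signals (-1.75 ± 0.23 SE, adjusted p = 0.00164). The gene gnb1b, for a transducin beta subunit, had dawn signals of 1689 to 3297 (median 2643) against 4325 to 7394 at dusk (-1.24 ± 0.19 SE, adjusted p = 0.00563). The gene gngt2b, for a cone transducin gamma subunit, had dawn signals of 106 at ZT22, 15.5 at ZT2 and 31.6 at ZT2b in LD, and 104, 36.1 and 47.2 at the same collections in DD, against 156 at ZT10 and 223 at ZT14 in LD, and 168 and 203 in DD at dusk (-1.66 ± 0.34 SE, adjusted p = 0.0207), a call lost under 7 of 25 alternative settings. The ZT22 arrays of gngt2b were the highest of the dawn arrays in each condition. The alpha subunit gene gnat2 had all dawn arrays, 747 to 1039.6 (median 933), above all dusk arrays, 594 to 694, but it missed the threshold (0.48 ± 0.15 SE, adjusted p = 0.139). The exorh difference was -0.29 ± 0.12 SE, adjusted p = 0.266, and the calcium sensor gene guca1c, whose product regulates guanylate cyclase, had 1.70 ± 0.51 SE, adjusted p = 0.128. The median of the 25 genes was -0.22.

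Of 10 retinoid cycle genes tested, 1, rpe65a, was called higher at dawn, where 1.16% of all genes tested were called higher at dawn. The gene cyp27c1, also given here, was not among the 10. The gene rpe65a, for the isomerohydrolase that regenerates the visual chromophore, had a bright probe set with dawn signals of 16703 at ZT22, 12213 at ZT2 and 12604.5 at ZT2b in LD and 8723, 6400.0 and 6859 in DD. Its dusk signals were 5525 at ZT10 and 5356 at ZT14 in LD and 4355 and 3703 in DD, all lower than any dawn signal. This probe set differed by 1.09 ± 0.15 SE, adjusted p = 0.00221, and a dimmer probe set, the larger of the pair in difference, by 1.80 ± 0.26 SE, adjusted p = 0.00357. The gene cyp27c1, which in zebrafish turns vitamin A1 into vitamin A2, had dawn signals of 396 at ZT22, 841 at ZT2 and 1201 at ZT2b in LD, and 356, 461 and 587 at the same collections in DD, against 361 at ZT10 and 118 at ZT14 in LD, and 83.1 and 126 in DD at dusk (1.88 ± 0.32 SE, adjusted p = 0.00938). Its LD array of ZT10 was above the lowest dawn array, that of ZT22 in DD.

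**Figure D3:**
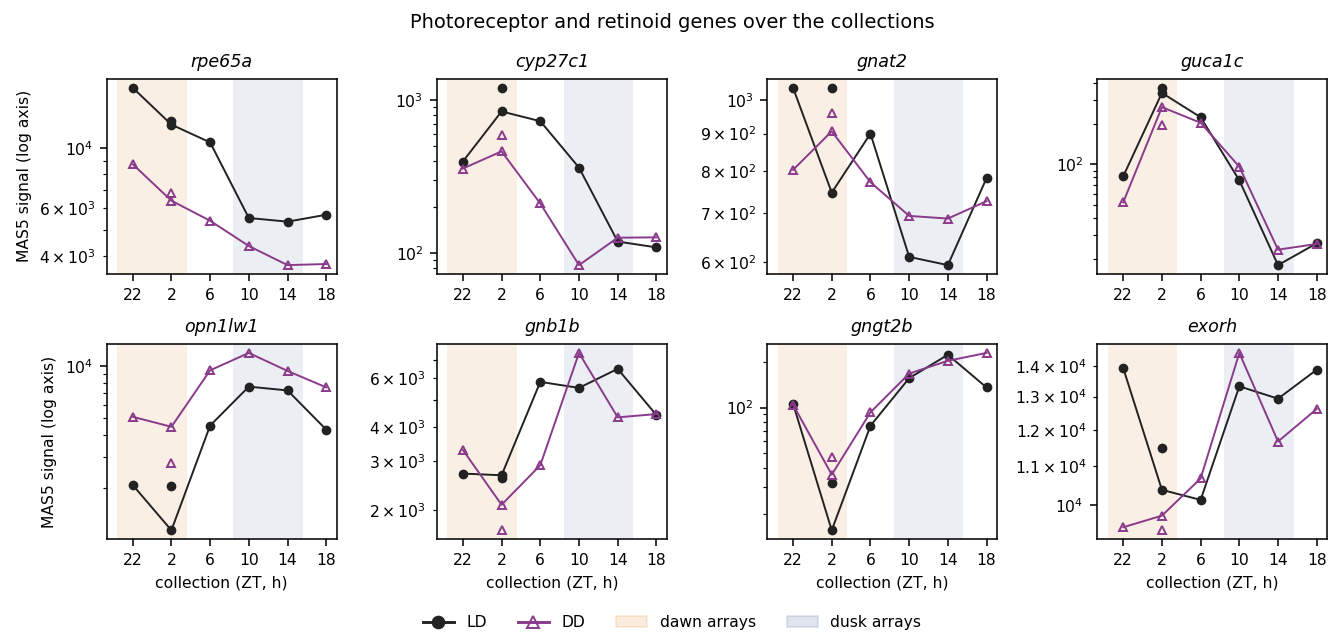
MAS5 signal (log axes, with a different range in each panel) of 8 photoreceptor and retinoid genes by collection time from ZT22 (left) to ZT18, in LD (filled circles) and DD (open triangles), a single pool per point, dawn and dusk collections shaded. The panels show rpe65a and cyp27c1 higher at dawn, opn1lw1, gnb1b and gngt2b higher at dusk, and gnat2, guca1c and exorh, which were not called.

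No tested gene of the melatonin synthesis list was called between dawn and dusk. Of 11 listed genes on the array, 6 passed the signal filter: aanat2, tph1a, tph2, ddc, asmtl and qdprb.1. The gene asmt, for acetylserotonin methyltransferase itself, was not among those tested. Of the 6 tested, 1 had an unadjusted p under 0.05, and the median difference was 0.05. With 1.16% of all genes tested called higher at dawn and 0.932% higher at dusk, few calls are expected in short lists. The gene aanat2 had dawn signals of 12482 at ZT22, 3193 at ZT2 and 3587 at ZT2b in LD, and 10143, 2906 and 7488 at the same collections in DD, against 3781 at ZT10 and 12349.7 at ZT14 in LD, and 1017 and 6588 in DD at dusk. High and low arrays occurred in both phases, with ZT22 and ZT14 above ZT2 and ZT10 in each condition, apart from the DD array of ZT2b, which was above the DD array of ZT14. Its difference was 0.41 ± 0.59 SE, adjusted p = 0.786. The tryptophan hydroxylase gene tph1a had 0.07 ± 0.40 SE, adjusted p = 0.959. The gene asmtl, related to acetylserotonin methyltransferase, had dawn signals of 88.2 to 106 (median 95.9), all below the dusk signals of 112 to 150, at -0.40 ± 0.13 SE, adjusted p = 0.165. No pineal transcription factor gene of 15 tested was called, among them crx (-0.33 ± 0.21, adjusted p = 0.519) and otx5 (-0.16 ± 0.18, adjusted p = 0.732).

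Of 18 light-induced and DNA repair genes, 2 were called higher at dawn and 1 higher at dusk. The shares over all genes tested were 1.16% and 0.932%. The DNA damage binding gene ddb2 had dawn signals of 103 at ZT22, 259 at ZT2 and 313 at ZT2b in LD, and 30.9, 42.4 and 44.2 at the same collections in DD, against 65.6 at ZT10 and 42.1 at ZT14 in LD and at most 24.5 in DD at dusk (1.21 ± 0.29 SE, adjusted p = 0.0496). The gene cry-dash, of a photolyase-like cryptochrome, had dawn signals of 76.0 at ZT22, 258 at ZT2 and 252 at ZT2b in LD, and 34.1, 42.7 and 63.2 at the same collections in DD, against 44.3 at ZT10 and 18.5 at ZT14 in LD, and 25.1 and 14.3 in DD at dusk (1.45 ± 0.35 SE, adjusted p = 0.0489). In LD the lit arrays of ZT2 and ZT2b were the brightest of each gene, above the dark array of ZT22. The catalase gene cat had dawn signals of 174 to 254 (median 181) against 348 to 412 at dusk (-0.83 ± 0.15 SE, adjusted p = 0.00938). The calls of ddb2 and cry-dash were lost under 17 and 15 of 25 alternative settings.

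Further genes of the 15 largest dusk differences were enzymes, regulators and a cyclin. The gene rimkla, whose mammalian homologue encodes a synthetase of N-acetylaspartylglutamate, had dawn signals of 77.6 at ZT22, 70.0 at ZT2 and 68.9 at ZT2b in LD, and 73.7, 42.3 and 27.0 at the same collections in DD, against 329.6 at ZT10 and 429.9 at ZT14 in LD, and 223 and 238 in DD at dusk. The groups were apart in both conditions (-2.10 ± 0.19 SE, adjusted p = 0.000105). The gene ccng2, for cyclin G2, had dawn signals of 34.1 to 115 (median 79.2) against 144 to 372 at dusk (-1.34 ± 0.28 SE, adjusted p = 0.0233), and its second probe set was called in the same direction. The call of the first was lost under 7 of 25 alternative settings. The gene soul4, of a family of haem-binding proteins, had dawn signals of 638 to 922 (median 755) against 1539 to 1972 at dusk (-1.17 ± 0.16 SE, adjusted p = 0.00212). All 3 of its probe sets were called, and the probe set given carries the platform's mark for probes that may also match other transcripts. The ubiquitin ligase genes znrf1 (-1.20 ± 0.23, adjusted p = 0.0164) and rnf144ab (-1.17 ± 0.22, adjusted p = 0.0136) were higher at dusk too. The transcription factor gene nfia had dawn signals of 158 to 244 (median 176) against 301 to 726 at dusk (-1.16 ± 0.21 SE, adjusted p = 0.0099). The calls of nfia, znrf1, rnf144ab and nckap5l were each lost without the LD array of ZT14. The gene nckap5l differed by -1.23 ± 0.24 SE, adjusted p = 0.0155, and its second probe set by -0.08, which was not called. The gene samd11, for a SAM domain protein, differed by -1.16 ± 0.28 SE, adjusted p = 0.0489, and its call was lost under 19 of 25 alternative settings.

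The housekeeping lists gave few calls or none, where 1.16% of all genes tested were called higher at dawn and 0.932% higher at dusk. At these shares few calls are expected in lists of these sizes. No gene was called among 83 of the respiratory chain, 71 cytosolic ribosomal proteins, 48 proteasome genes, 24 of glycolysis, 24 ion channels and pumps, 30 of vesicle release, 17 of the cell cycle and 9 of cholesterol synthesis. The 83 splicing factors held a single call, rbm4.1 (1.04 ± 0.24, adjusted p = 0.0366), given by the brighter of its 2 tested probe sets. The 24 genes of NAD metabolism and redox held the call of keap1a, for the sensor that restrains Nrf2 (0.79 ± 0.17, adjusted p = 0.0339). Both genes were higher at dawn, and each call was lost under 13 of 25 alternative settings. Of the respiratory chain genes, 68 of 83 had a difference above 0, with a median of 0.12. Without the DD array of ZT10, 40 of 83 were above 0 and the median was -0.005. The medians of the ribosomal and proteasome lists likewise changed sign without that array, with 0.08 for the ribosomal list and 0.08 for the proteasome list over all 10 arrays and -0.04 and -0.12 without it.

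**Figure D4:**
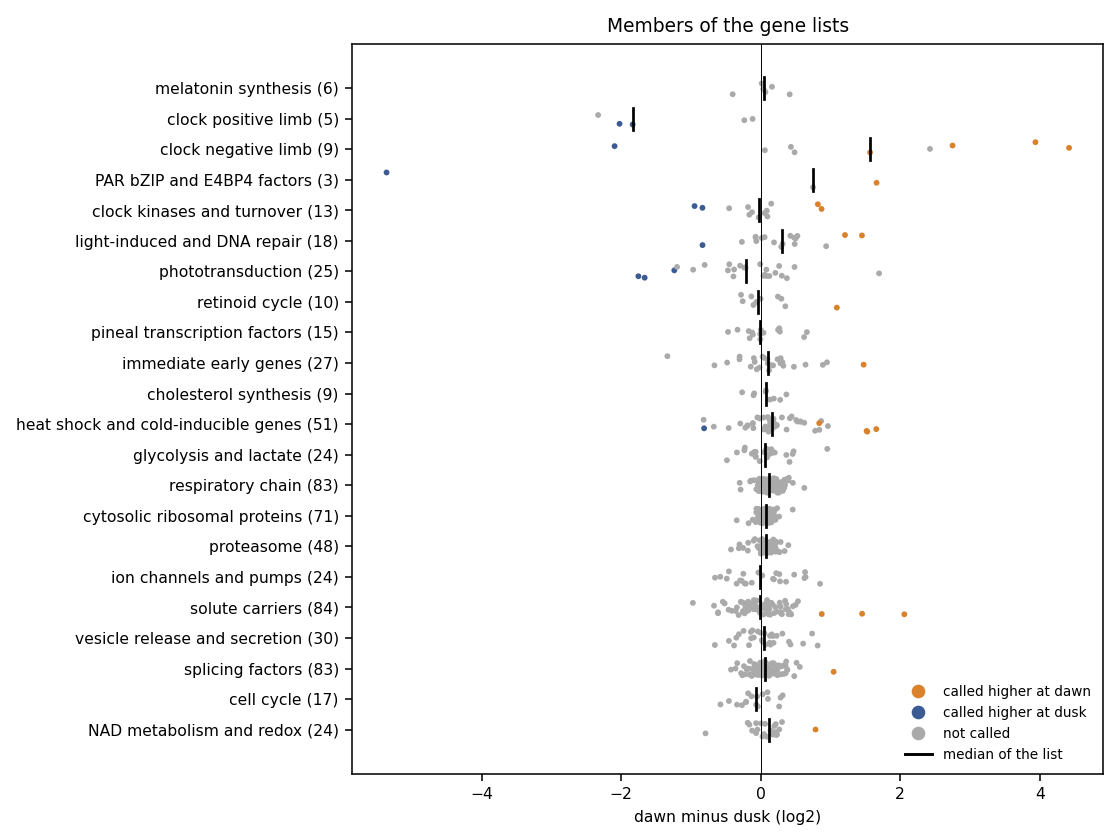
Difference between dawn and dusk (log2, horizontal axis) of each tested gene in the gene lists of pathways and functions, with 1 probe set per gene, the number tested in brackets and the list's median as a black bar. Genes called higher at dawn are orange and genes called higher at dusk blue: the calls with the largest differences are in the clock lists, and the respiratory chain, ribosomal and proteasome lists lie near 0 with no call.

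The dawn-dusk difference was next taken in each light condition, with 3 dawn against 2 dusk arrays in each. In LD 113 probe sets (1.22%) were called, 65 higher at dawn and 48 higher at dusk. In DD 9 (0.0968%) were called, 5 higher at dawn and 4 higher at dusk, and all 9 were called in LD too. The named genes among them were bhlhe41, ciarta, arg2 and dedd1, higher at dawn, and nfil3-5, cry4 and rimkla, higher at dusk. At an unadjusted p under 0.05, there were 973 probe sets in LD and 1083 in DD. Leaving out an LD array changed the LD count to 12 (ZT14), 39 (ZT2b), 58 (ZT2) or 66 (ZT10). Leaving out the DD array of ZT10, ZT2 or ZT2b changed the DD count to 2, leaving out the LD array of ZT2b or ZT2 changed it to 4 or 6, and leaving out the DD array of ZT14 changed it to 716, which leaves the DD array of ZT10 as the single dusk array in DD.

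No difference between the conditions was called. The test of the LD difference minus the DD difference gave 0 calls, with 524 probe sets at an unadjusted p under 0.05 against 464.95 by chance and a smallest adjusted p of 0.555. There were 103 calls without the DD array of ZT14 and 1 when the ZT10 array of LD was left out. The median SE of the LD minus DD difference was 0.361 over all tested probe sets. Its median size was 0.375 among the 206 probe sets called over both conditions. Differences of that size could not be resolved, so 0 calls do not show that LD and DD were alike. All 206 probe sets called over both conditions had the same sign in LD and in DD. For those higher at dawn the median difference was 1.28 in LD and 0.93 in DD, with the larger size in LD for 78 of 96. For those higher at dusk it was -1.06 in LD and -0.89 in DD, with the larger size in LD for 80 of 110. Over all tested probe sets the size was larger in LD for 45.8%. The called probe sets were chosen on these same values, by a fit in which disagreement between LD and DD counts as spread. A call over both conditions therefore favours a shared sign, and the signs and sizes are a description.

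Single genes show how the conditions compared. The differences of bhlhe41 were 4.99 in LD and 3.85 in DD, those of ciarta 4.75 in LD and 3.12 in DD, and those of nfil3-5 -5.70 in LD and -5.02 in DD. The differences of cry4 were -1.83 in LD and -2.36 in DD. Among the named genes with the smallest p for a difference between conditions were, at an adjusted p of 0.828, atp2b1a, a plasma membrane calcium pump gene, mmp9, a matrix metalloproteinase gene, dyrk2, a protein kinase gene, and si:dkeyp-1h4.9. None of these 4 was called between dawn and dusk.

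**Figure D5:**
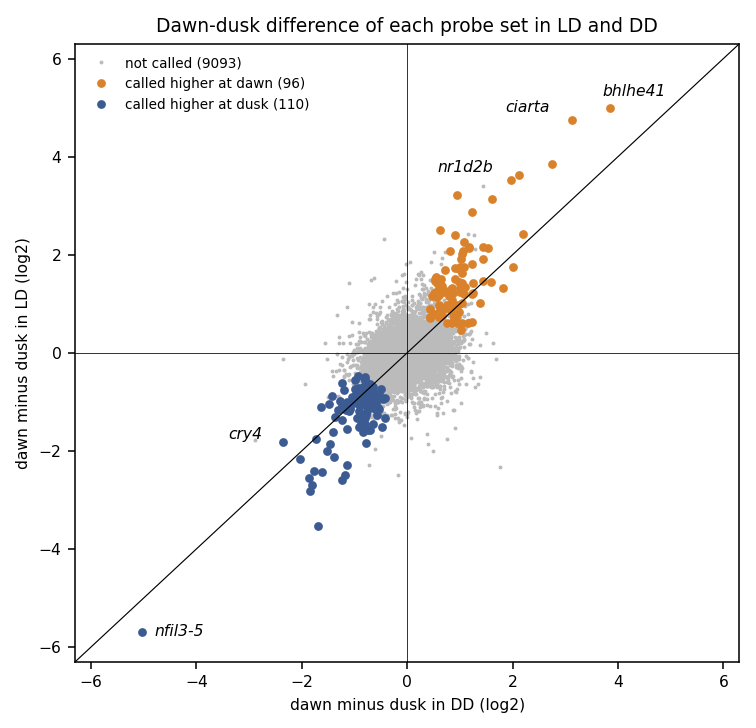
Dawn minus dusk difference (log2) of the 9299 probe sets in DD (horizontal) and in LD (vertical), with the line of equal differences. Probe sets called over both conditions are orange (higher at dawn) or blue (higher at dusk). All 206 lie in the 2 quadrants where LD and DD share a sign, which the rule for a call favours.

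The collections within a phase were compared with each other, with light condition as a term. For ZT2 with ZT2b against ZT22, no probe set was called, 566 had an unadjusted p under 0.05, and the smallest adjusted p was 0.0933, that of guca1c. For ZT14 against ZT10, none was called, 818 had an unadjusted p under 0.05, and the smallest adjusted p was 0.403. Without the LD array of ZT10, where the LD arrays then give no ZT10 value, 360 were called. The genes named next were chosen after their values were seen. The per2 signals in LD were 3974 at ZT2 and 3861 at ZT2b, against 70.6 at ZT22. In DD they were 486 and 511, against 286 at ZT22, and ZT2 minus ZT22 was 3.15 ± 0.74 SE, adjusted p = 0.385. The guca1c signals were 339.5 at ZT2 and 371 at ZT2b against 81.5 at ZT22 in LD, and 266 and 195 against 52.3 in DD (1.90 ± 0.25 SE, adjusted p = 0.0933). The bhlhe40 signals were 91.6 at ZT14 against 1328.5 at ZT10 in LD, and 185 against 1891.5 in DD (-3.45 ± 0.56 SE, adjusted p = 0.403). Its dawn signals, 896 to 4354 (median 3005), overlapped those of ZT10, and its dawn-dusk difference was 2.43 ± 0.71 SE, adjusted p = 0.121. The aanat2 signals were 12349.7 at ZT14 against 3781 at ZT10 in LD, and 6588 against 1017 in DD (2.19 ± 0.53 SE, adjusted p = 0.556).

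The arrays of ZT6 and ZT18 placed most called probe sets between the phases. They entered none of the main tests. They counted in the mean signal by which probe sets were chosen for testing and in the percentile that set the added 14.9. The alternative settings included a fit with all 14 arrays. On a scale where 0 is the mean of the dusk arrays and 1 the mean of the dawn arrays, the probe sets higher at dawn had a median position of 0.61 at ZT6 and 0.27 at ZT18. Those higher at dusk had 0.65 at ZT6 and 0.32 at ZT18, so that in both sets the midday arrays lay nearer to dawn and the midnight arrays nearer to dusk. The mean of ZT6 lay between the dawn and dusk means for 93.2% of the 206 called probe sets and the mean of ZT18 for 83.0%, against 33.9% and 35.5% of all tested probe sets. A wider gap between the phases makes a value between them more likely, and the called probe sets were chosen for a wide gap. Of those higher at dawn, 26 of 96 were lower at ZT18 than the dusk mean. The gene bhlhe41 was an example of the common order, with 255 in LD and 318 in DD at ZT6 and 105 in LD and 81.8 in DD at ZT18.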

How the data were processed

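The authors deposited intensities: for 15617 probe sets of an Affymetrix zebrafish array, a MAS5 signal each. GCOS and MAS5 made them, per the submitters' processing notes, and no version is given in the sources used here. Total RNA was amplified about 1800-fold in 2 cycles of transcription, per the labels' protocols. A mean after trimming 2% at each end of 150.04 to 150.05 on every array shows the authors' scaling. The file held 115 control probe sets and 1 probe set with an empty cell, which were left out, and 0 columns of other series.

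Of 15502 other probe sets, the platform annotation gives 1 gene symbol for 10795, several for 135 and no symbol for 4572. Symbols were checked against RefSeq gene tables, which updated 1 symbol, and 116 stayed as the platform gives them. Coordinates were not used here, since no genome build is named. Promoter motifs were planned and not analysed here.

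Signals were taken as log2(signal + 14.9), with the 25th percentile of all values added, which understates the changes of dim probe sets. Testing was limited to the 9299 probe sets whose mean over 14 arrays was above 29.179, the 40th percentile. The limma package 3.58.1 under R 4.3.3 was used for all fits (functions lmFit and eBayes, eBayes with a mean-variance trend), and p-values were adjusted by Benjamini-Hochberg over all tested probe sets at 0.05. The first model had phase and light condition, the second 4 group means and the third 4 collection times and light condition. Every adjusted p is from limma. The procedure was run on simulated data with independent noise on each array, which does not cover an array that stands apart. No batch or date was given in the sources used here, and depth does not apply to arrays, whose precision is limited by their number.

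The members and gene lists were chosen with earlier results of these data known. The text names the 15 genes with the largest called differences in each direction whose dawn and dusk arrays did not overlap within either condition, members of the lists, the 5 genes with the smallest p for the difference between LD and DD, and others where the text says so. 1 gene that this rule names is not reported here. In a list, each gene is given by its brightest probe set. Alternatives covered the added constant, the filter, the scaling, the prior, array weights, the light term and collection time as a random block. They also covered the ZT2b arrays, each array in turn and a fit with all 14 arrays. Tables and figures were made with Python 3.11.15, pandas 2.3.3 and matplotlib 3.10.9.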

Additional observations from a re-analysis of the deposited data

Results flagged for a closer look

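Of 130 groups of dawn or dusk arrays examined among the named genes, 7 held an array far from the others of its phase, where about 5% of groups are flagged by chance. The number flagged is thus close to the chance share, and each group mixes collection times. At dusk, 3 of these were the DD array of ZT10, which also stood apart in RNA quality measures: bhlhe41 had 126.5 there, against 42.8 to 50.8 on the other dusk arrays. The gene qdprb.1, of the melatonin synthesis list, had 124.6 there, against 60.3 to 66.8, and slc13a5a had 37.9, against 21.8 to 23.5. Each of these 3 genes was higher on that array than on the other dusk arrays. The cryptochrome gene cry1a had 297.6 on the LD array of ZT10, against 33.1 to 44.4 on the other dusk arrays. Among dawn arrays, the LD array of ZT22 had 2.2 for rorcb, against 25.2 to 46.8 on the others, and 194.5 for keap1a, against 113.5 to 131.7. The cyclin gene ccng2 had 34.1 on the DD array of ZT2b, against 76.2 to 115.3 on the other dawn arrays. The cause was not tested.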

How the results depend on the processing

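Over both conditions, 206 probe sets were called, 96 higher at dawn and 110 higher at dusk. The total was 128 when the fit and the adjustment ran on 1 probe set per gene alone (fewer were tested), with 70 higher at dawn and 58 at dusk, 75 with ZT2 and ZT2b averaged (31 higher at dawn, 44 at dusk), 310 with array weights (166 higher at dawn), 101 without the light term (37 and 64), and 51 without both ZT2b arrays (25 and 26). Leaving out both ZT2b arrays also gave 21 calls in LD, 1 in DD and 1 for ZT2 against ZT22. Leaving out each array in turn gave 93 to 249 calls in all, 41 to 138 higher at dawn, 52 to 111 higher at dusk, 12 to 147 in LD, 2 to 716 in DD, 0 to 103 for the difference between LD and DD, 0 to 2 for ZT2 against ZT22 and 0 to 360 for ZT14 against ZT10. The causes of these changes beyond fewer arrays or probe sets were not tested. Of the called probe sets, 46.6% were higher at dawn, and 55.6% with median centring. Of the 30 genes with the largest differences, 16 kept their call in all 25 alternatives. The calls of rpe65a, dedd1, mid1ip1l, serpinh1b, fbxl3a and csnk1e were lost without the light term, and, among others, those of cyp27c1, csnk1db, fbxl3a, csnk1e and cat without both ZT2b arrays. Over all named genes and alternatives, 1402 of 1613 values kept the side of the threshold, 205 lost the call and 6 gained it. The 1402 include genes that were not called to begin with. Among values called in the main fit or in the alternative, 0 changed direction. Uncalled genes did change sign in some settings, such as aanat2 (-0.285 to 0.927) and per2 (-0.468 to 0.883). LD and DD arrays share collection times. With collection time as a random block (estimated correlation 0.0234), 189 probe sets were called, 87 higher at dawn and 102 at dusk, and the calls of cry2, klf9, ddb2, cry-dash and samd11 were lost. Collection time as a fixed block could not be fitted, since each time lies in a single phase. The number of arrays, with 2 at dusk in each condition, limits the precision, as does the low signal of dim probe sets such as cry4 at dawn.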

Other observations

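The genes in this section were chosen after their values were seen. Whether their calls held under the alternative settings was not examined, and the value of bco2a is that of 1 of its 2 tested probe sets. Among the genes called higher at dawn and in no list above were ppat, for the first enzyme of purine synthesis (1.23, adjusted p = 0.0011), bco2a, a carotenoid-cleaving oxygenase gene (1.12, adjusted p = 0.049), and cth, for cystathionine gamma-lyase (0.58, adjusted p = 0.046). The ferritin heavy chain-like genes fthl28 (1.04, adjusted p = 0.0094) and fthl30 (0.81, adjusted p = 0.016) were higher at dawn too, as was cebpd, a C/EBP transcription factor gene (0.93, adjusted p = 0.033). The fthl30 probe set carries the platform's mark for probes that may also match other transcripts, so the ferritin signals may not be separate.

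Among the genes called higher at dusk were bco1, the gene of the carotenoid oxygenase that makes retinal (-0.77, adjusted p = 0.032), odc1, for ornithine decarboxylase of polyamine synthesis (-0.97, adjusted p = 0.039), and psat1, of serine synthesis (-0.97, adjusted p = 0.014). The genes myclb, of the Myc family (-1.07, adjusted p = 0.0052), smad7, an inhibitor of TGF-beta signalling (-0.92, adjusted p = 0.0087), and etv5a, an ETS factor gene with 2 called probe sets (-0.86 and -0.85), were called higher at dusk as well.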
